A study of Mus musculus with 8 samples.

Results

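The de novo (kynurenine) and Preiss-Handler routes of NAD synthesis were followed here in the liver of obese diabetic mice through 10 genes, Tdo2, Ido2, Afmid, Kmo, Kynu, Haao, Acmsd, Qprt, Naprt and Nadsyn1. They were chosen by gene symbol, for the step each enzyme catalyses, and all 10 were found among the 41388 features counted in each library. All 8 livers came from db/db mice, which lack a working leptin receptor and become obese and diabetic. The strain label reads C57B/6J. Littermates were randomised at 5 weeks of age and given, through the tail vein, an adenovirus encoding green fluorescent protein (AdGFP, 4 mice) or nicotinamide phosphoribosyltransferase (AdNAMPT, 4 mice), and were 10 weeks old at sampling. The genotype label reads control for the AdGFP mice, although both groups carry the leptin receptor mutation. By the series record, the vectors had been expressed for 4 to 5 weeks. Shorter times between injection and assay are given in the study's adenovirus methods and in its legend for white fat of db/db mice. Which time applies to these livers could not be settled here. There was no lean group and no group without virus, and no promoter is given for either vector in the labels or methods, although the study calls its overexpression hepatocyte-specific.

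In the de novo pathway, the liver opens the indole ring of tryptophan and carries the product through kynurenine to an unstable semialdehyde. That intermediate either closes by itself to quinolinate, the precursor of NAD, or is decarboxylated and lost to NAD synthesis. Quinolinate and dietary nicotinic acid are each joined to a phosphoribosyl group to give the same mononucleotide, and from there both routes share adenylylation and a last amidation to NAD. NAMPT, the enzyme carried by the vector, works in a separate salvage route that recycles nicotinamide.

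In these livers 9 of the 10 genes had lower estimates in AdNAMPT than in AdGFP with TMM scaling, and 6 with library size alone. Of all tested genes, 49.6% were lower with TMM scaling and 26.3% with library size alone. For Haao, Qprt and Naprt the TMM log2 fold changes were -0.04 to -0.05, and their sign turned with library size alone. Under either scaling 9 of the 10 lay below the median of all genes, but a change of scaling moves all genes nearly alike. The lowest estimates were those of Acmsd, Kmo and Afmid, at 0.614 to 0.784 times the AdGFP level. None of the 10 passed the adjusted threshold, and the groups overlapped for every one of them. Only 0.277% of all tested genes passed and 4.79% had non-overlapping groups after TMM scaling, so neither count sets the 10 apart. Among individual mice the 10 genes ranged from Nadsyn1, among the least variable genes of the liver transcriptome, to Acmsd, among the most variable.

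Promoter sequences are shown for Kmo and Afmid, the 2 genes with the lowest unadjusted p-values, and for Nadsyn1, the steadiest, so that the contrast in CG content described with the spread among mice can be seen directly. They are the 250 bases before the annotated start in RefSeq, build GRCm38.p6, written 5′ to 3′ on the strand of the gene, with each CG dinucleotide in capitals. The Kmo window lies at chr1:175631943-175632192 on the plus strand, the Afmid window at chr11:117825669-117825918 on the plus strand and the Nadsyn1 window at chr7:143822853-143823102 on the minus strand. The Kmo window belongs to a RefSeq start inside the gene as the deposited files delimit it, downstream of their first base.
Kmo: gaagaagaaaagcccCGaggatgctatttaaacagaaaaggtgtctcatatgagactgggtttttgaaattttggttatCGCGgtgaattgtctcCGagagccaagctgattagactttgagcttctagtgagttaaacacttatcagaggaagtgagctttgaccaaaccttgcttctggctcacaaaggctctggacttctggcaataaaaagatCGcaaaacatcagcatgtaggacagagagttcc
Afmid: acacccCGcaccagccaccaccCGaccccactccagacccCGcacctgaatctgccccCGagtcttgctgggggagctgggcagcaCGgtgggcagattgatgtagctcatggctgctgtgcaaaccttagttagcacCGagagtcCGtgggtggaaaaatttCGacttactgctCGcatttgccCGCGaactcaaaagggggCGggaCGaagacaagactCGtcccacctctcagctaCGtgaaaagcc
Nadsyn1: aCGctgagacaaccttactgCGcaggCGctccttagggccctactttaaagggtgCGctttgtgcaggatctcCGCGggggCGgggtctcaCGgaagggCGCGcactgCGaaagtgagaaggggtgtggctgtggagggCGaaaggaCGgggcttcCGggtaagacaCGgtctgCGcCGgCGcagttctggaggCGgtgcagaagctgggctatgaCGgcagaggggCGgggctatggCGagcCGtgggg

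Libraries held 12006713 to 19879814 counts, and each of the 10 genes had between 289 and 50491 reads in every library, far above the 3 reads taken as the detection floor. Hepatocyte markers summed to 102435 to 129482 CPM (reads scaled to library size) in AdGFP and 102552 to 127468 CPM in AdNAMPT, which matched the liver label. The gene carried by the vector did not separate the groups. Nampt was at 102.3, 136.8, 152.7 and 141.6 CPM in AdGFP mice 1 to 4 and at 148.8, 120.5, 177.8 and 168.1 CPM in AdNAMPT mice 1 to 4 (log2 fold change 0.08, SE 0.15, adjusted p 0.915 by limma), so AdNAMPT below means the libraries labelled AdNAMPT. The library of AdNAMPT mouse 1 received the lowest quality weight in the fit, 0.440, against 0.811 to 1.41 for the other libraries. Mitochondrial ribosomal RNA took 1.77% to 2.56% of counts in AdGFP and 0.863% to 1.62% in AdNAMPT, and Gm42418, a gene overlapping a ribosomal RNA repeat, was at 9962 to 22477 CPM against 2001 to 2330 CPM. The part of these differences in the results below was not tested.

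Levels per length were compared first, in reads normalised to library size and exonic length (RPKM), to order the genes by transcript abundance. Tdo2, the first enzyme, was the most abundant at 774 ± 161 RPKM (mean ± SD over 8 mice), and Haao followed at 537 ± 61.0 RPKM. Their ranges overlapped, but Tdo2 exceeded Haao in 8 of 8 mice. Kmo came next at 123 ± 22.2 RPKM and overlapped neither the gene above nor the gene below it. Qprt, Kynu and Naprt formed an overlapping middle group at 48.4 ± 4.77, 46.2 ± 5.38 and 38.9 ± 4.15 RPKM. Qprt exceeded Kynu in 5 of 8 mice, so those 2 did not differ beyond their spread. Acmsd, at 22.1 ± 7.76 RPKM, was below Naprt in every mouse. Acmsd exceeded Ido2, and Ido2 exceeded Afmid, in 7 of 8 mice, with overlapping ranges. Ido2 was at 13.0 ± 1.54 RPKM and Afmid at 10.9 ± 1.74 RPKM, and Nadsyn1, the last enzyme, was lowest at 7.22 ± 0.513 RPKM. The place of Afmid depended on its length. Of its exonic bases, 1566 are shared with the feature Gm20708, and reads there were not counted. Over the other 1973 bases, a calculation added after the data had been seen, Afmid was at 19.6 ± 3.12 RPKM, above Ido2 in 8 of 8 mice and below Acmsd in 4 of 8. The mean RPKM of Tdo2 was 107 times that of Nadsyn1.

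**Figure D1:**
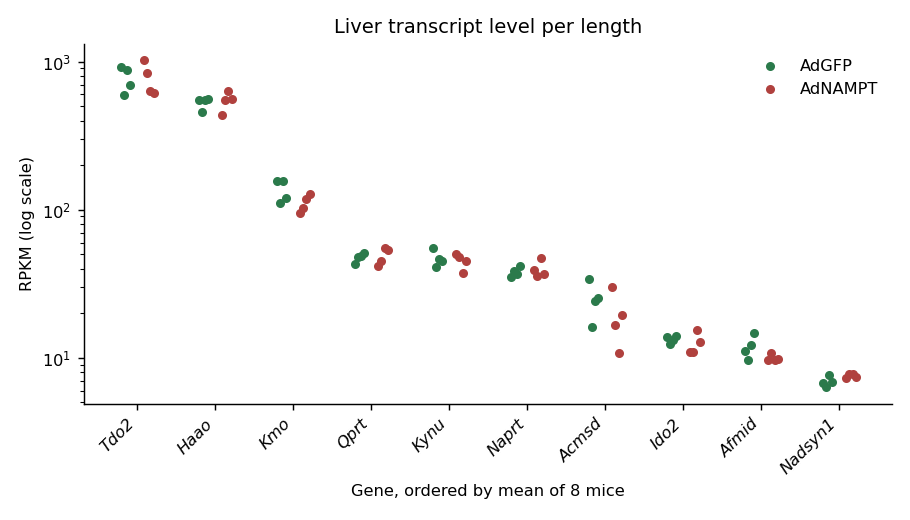
Liver transcript level per length (RPKM, log scale) of the 10 genes, ordered by the mean over 8 mice, with 1 point per mouse in green for AdGFP and red for AdNAMPT. Tdo2 and Haao stand at 438 RPKM or more, Nadsyn1 lies between 6.34 and 7.79 RPKM, and the Acmsd points are spread most, from 10.8 to 34.1 RPKM.

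The 10 genes were then compared between AdGFP and AdNAMPT livers in a limma fit over 12270 genes, of which 34 (0.277%) passed an adjusted p of 0.05. None of the 10 passed by limma, edgeR or DESeq2, and their limma adjusted p-values ranged from 0.392 to 0.933. An unadjusted p under 0.05 was found for 3 of the 10 by limma, all lower in AdNAMPT, and for 2 by edgeR and 2 by DESeq2 (Kmo and Afmid), against limma shares of 9.69% of all tested genes in either direction and 5.04% in the lower direction. No gene of the 10 had non-overlapping groups, against 4.79% of tested genes. The median log2 fold change of the 10 was -0.16, beside 0.0015 for all tested genes, of which 49.6% were lower. Scaling by library size alone moved all genes up together, to a median of 0.09 with 26.3% lower, and the 10 to a median of -0.07 with 6 lower and 4 higher. Relative to the median of all genes the 10 stood at -0.17 under both scalings, with 9 of 10 below it. Because a change of scaling moves all genes nearly alike, this agreement is not a second line of evidence. Fewer cells of a type and less RNA per cell cannot be told apart in these whole-liver libraries.

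**Figure D2:**
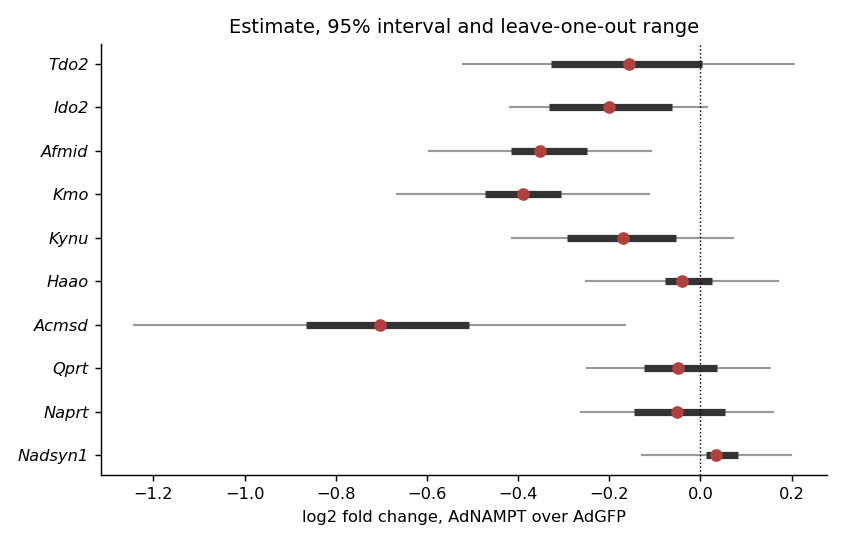
Log2 fold change of AdNAMPT over AdGFP for each gene in pathway order. Points are limma estimates, thin lines their 95% confidence intervals and thick bars the range of estimates when each library was left out in turn. The intervals of Acmsd, Kmo and Afmid exclude 0 before adjustment, and the leave-one-out ranges of Tdo2, Haao, Qprt and Naprt cross 0.

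Tryptophan is opened by Tdo2 (ENSMUSG00000028011, chromosome 3, 81957090 to 81975750, GRCm38), the heme dioxygenase that sets the pace of the pathway in liver, and to a lesser extent by Ido2 (ENSMUSG00000031549, chromosome 8, 24531894 to 24576333). Tdo2 was at 3144, 2050, 3016 and 2377 CPM in AdGFP mice 1 to 4 and at 3495, 2890, 2177 and 2088 CPM in AdNAMPT mice 1 to 4. High and low mice occurred in both groups, and the highest value of all belonged to AdNAMPT mouse 1. The log2 fold change was -0.16 (SE 0.17, adjusted p 0.809 by limma), and leaving out AdNAMPT mouse 3 brought it to 0.0031. Ido2 was at 50.2, 45.2, 47.7 and 51.4 CPM in AdGFP and at 40.0, 39.8, 56.2 and 46.6 CPM in AdNAMPT. AdNAMPT mice 1 and 2 lay below the AdGFP range and AdNAMPT mouse 3 above it, with a log2 fold change of -0.20 (SE 0.10, adjusted p 0.552 by limma). Ido1, the dioxygenase better known from immune cells, had 0 reads in all 8 libraries, which at the floor of 3 counts allows at most 0.151 to 0.250 CPM.

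Afmid (ENSMUSG00000017718, chromosome 11, 117825924 to 117839908) encodes the formamidase that releases kynurenine from its formyl precursor. It was at 39.4, 34.3, 43.1 and 51.7 CPM in AdGFP mice and at 34.1, 37.9, 34.4 and 34.8 CPM in AdNAMPT mice. AdGFP mice 1, 3 and 4 were above every AdNAMPT mouse, while AdGFP mouse 2 lay inside the narrow AdNAMPT range. The log2 fold change was -0.35 (SE 0.11, adjusted p 0.392 by limma), 0.784 times the AdGFP level, with an unadjusted p of 0.00878 by limma and 0.00887 by edgeR. All 16 alternative analyses gave a lower estimate with an unadjusted p under 0.05, and none of these passed after adjustment. A same-strand feature, Gm20708, shares 1566 exonic bases with Afmid, 44.2% of its exonic length. Reads from shared bases were ambiguous to the counting and are not in these values, so the level of Afmid is understated. Gm20708 itself had 0 to 5 reads per library. Tk1 overlaps another 83 exonic bases on the opposite strand.

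Kmo (ENSMUSG00000039783, chromosome 1, 175620381 to 175662116), the flavoprotein of the outer mitochondrial membrane that commits kynurenine to the NAD branch, was at 733.7, 522.9, 735.5 and 569.8 CPM in AdGFP mice. In AdNAMPT mice it was at 451.7, 488.1, 554.8 and 600.2 CPM. AdGFP mice 1 and 3 were above all AdNAMPT mice, and the 2 lowest values of the 8 both came from AdNAMPT. The log2 fold change was -0.39 (SE 0.13, adjusted p 0.403 by limma), 0.763 times the AdGFP level, with unadjusted p-values of 0.0100 by limma, 0.0155 by edgeR and 0.00500 by DESeq2. Without single libraries the estimate ranged from -0.47 to -0.31. As for Afmid, the unadjusted p stayed under 0.05 in 16 of 16 alternatives and no adjusted p passed.

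Kynureninase, from Kynu (ENSMUSG00000026866, chromosome 2, 43555329 to 43682715), cleaves hydroxykynurenine with a vitamin B6 cofactor, and the ring of its product is opened by the iron dioxygenase Haao (ENSMUSG00000000673, chromosome 17, 83831356 to 83846790). Kynu was at 338.9, 254.2, 285.5 and 277.9 CPM in AdGFP and at 310.0, 296.8, 230.6 and 277.9 CPM in AdNAMPT. Only the highest AdGFP mouse and the lowest AdNAMPT mouse fell outside the range of the other group (log2 fold change -0.17, SE 0.11, adjusted p 0.661 by limma). Haao was at 667.4, 559.9, 670.7 and 686.8 CPM in AdGFP and at 535.3, 673.8, 768.0 and 687.1 CPM in AdNAMPT. Each group held 1 low mouse, and the log2 fold change was -0.04 (SE 0.10, adjusted p 0.933 by limma).

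At the branch point, Acmsd (ENSMUSG00000026348, chromosome 1, 127729413 to 127767978) decarboxylates the semialdehyde and so diverts carbon away from NAD. It was at 96.5, 45.4, 69.1 and 71.3 CPM in AdGFP mice and at 84.7, 47.3, 30.5 and 54.8 CPM in AdNAMPT mice. The lowest value came from AdNAMPT mouse 3 and the highest from AdGFP mouse 1, but AdGFP mouse 2 and AdNAMPT mouse 1 lay on the far side of their groups. Its estimate was the most negative of the 10, a log2 fold change of -0.70 (95% confidence interval -1.24 to -0.17, adjusted p 0.426 by limma), or 0.614 times the AdGFP level. This value rested on the sample weights. The unadjusted p was 0.0151 with weights, 0.0889 without them (log2 fold change -0.54), 0.117 by edgeR and 0.188 by DESeq2, and without AdNAMPT mouse 1 the weighted log2 fold change was -0.84. The antisense feature 2900009J06Rik shares 94 exonic bases with Acmsd and had 1 to 8 reads per library, against 607 to 1412 for Acmsd.

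The 2 phosphoribosyltransferases that make nicotinic acid mononucleotide were close to level between groups. Qprt (ENSMUSG00000030674, chromosome 7, 127107114 to 127122226), which uses quinolinate, was at 114.6, 126.4, 127.9 and 135.9 CPM in AdGFP and at 111.1, 120.0, 146.3 and 141.6 CPM in AdNAMPT. The AdNAMPT mice spanned the whole AdGFP range, with a log2 fold change of -0.05 (95% confidence interval -0.25 to 0.15, adjusted p 0.911 by limma). Naprt (ENSMUSG00000022574, chromosome 15, 75890964 to 75894481), which uses nicotinic acid in the Preiss-Handler route, was at 66.0, 73.1, 69.2 and 79.2 CPM in AdGFP and at 73.6, 67.0, 89.8 and 69.7 CPM in AdNAMPT. AdNAMPT mouse 3 alone lay outside the AdGFP range, and the log2 fold change was -0.05 (95% confidence interval -0.26 to 0.16, adjusted p 0.908 by limma). Nadsyn1 (ENSMUSG00000031090, chromosome 7, 143795584 to 143822849), the glutamine-dependent synthetase of the last step, was at 22.49, 20.97, 25.15 and 22.66 CPM in AdGFP and at 24.07, 25.74, 25.55 and 24.40 CPM in AdNAMPT. AdGFP mouse 3 fell among the AdNAMPT mice and the other AdGFP mice below them. After TMM scaling the difference was smaller, a log2 fold change of 0.04 (95% confidence interval -0.13 to 0.20, adjusted p 0.922 by limma).

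**Figure D3:**
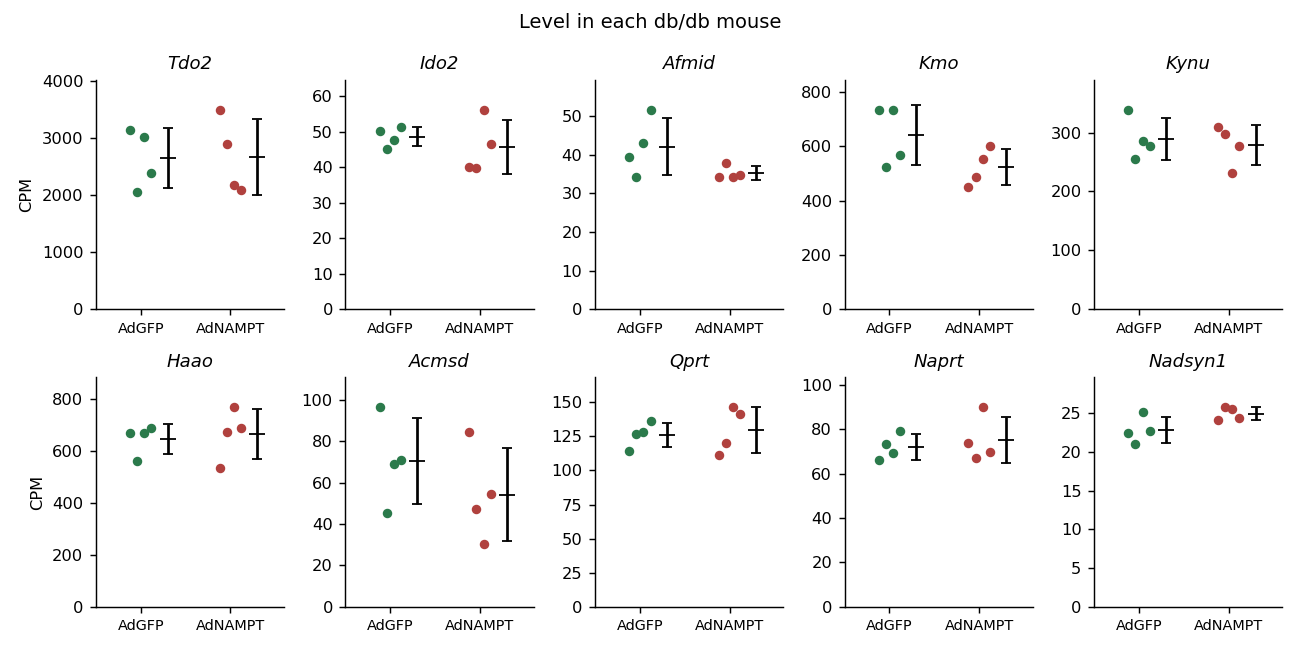
Level of each gene in reads scaled to library size (CPM, axes from 0) in AdGFP (green) and AdNAMPT (red), with 1 point per mouse and bars for the mean ± SD of 4 mice. Afmid and Kmo means are lower in AdNAMPT, at 35.3 and 523.7 CPM against 42.2 and 640.5 CPM, and the points of the groups overlap in all 10 panels.

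Ratios within a library do not depend on scaling, and 8 were compared to ask whether the balance at branch points differed between groups. None passed an exact two-sided permutation test over 70 assignments of the mice, for which the smallest possible p was 0.0286. A single ratio at that p could not have passed after adjustment over the 8 ratios. The absence of calls therefore cannot show that the balance was alike in the groups. Haao relative to Kmo had the lowest unadjusted p. The CPM ratio was 0.910, 1.07, 0.912 and 1.21 in AdGFP mice and 1.18, 1.38, 1.38 and 1.14 in AdNAMPT mice, so that 3 of the 4 AdGFP mice lay below every AdNAMPT mouse (log2 difference 0.32, exact permutation p 0.0857, adjusted 0.571). Qprt relative to Acmsd, the NAD arm over the diverting arm, was 1.19, 2.78, 1.85 and 1.91 in AdGFP and 1.31, 2.54, 4.79 and 2.59 in AdNAMPT. The spread within each group exceeded the difference between them (log2 difference 0.46, exact permutation p 0.371, adjusted 0.571). For Haao over Acmsd and Tdo2 over Acmsd the log2 differences were 0.46 and 0.42, for Kynu over Kmo 0.23 and for Kmo over Aadat, an aminotransferase that takes kynurenine to kynurenic acid, -0.19, each with an adjusted exact permutation p of 0.571. Qprt over Naprt (log2 difference -0.02) and Tdo2 over Nampt (log2 difference -0.21) had adjusted exact permutation p-values of 0.8286 and 0.620.

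The genes also differed in the spread among mice of a group. Acmsd had a within-group SD of 0.520 on the log2 TMM CPM scale, higher than in 96.4% of tested genes, and Tdo2 an SD of 0.311, higher than in 84.3%. Kmo, at 0.215, stood at 65.4%. Kynu, Haao, Afmid, Ido2, Qprt and Naprt lay in the middle of the transcriptome, with SDs of 0.180, 0.177, 0.171, 0.164, 0.155 and 0.144. Nadsyn1 had an SD of 0.0739, higher than in only 5.17% of tested genes, although it had the fewest reads of the 10 at 289 to 508 per library.

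The mice did not deviate in all genes together. Tdo2, Kynu and Acmsd were high in AdGFP mouse 1, by 0.31, 0.31 and 0.76 log2 units over the mean of all mice, and low in AdNAMPT mouse 3, at -0.34, -0.37 and -1.02. Qprt and Naprt went the other way in both mice, at -0.11 and -0.11 in the first and at 0.12 and 0.22 in the second. Pairwise correlations over the 8 mice were computed for all 45 pairs, with exact permutation of the pairings. After adjustment 0 pairs passed, with 8 at an unadjusted exact permutation p under 0.05, and 28 of the 45 coefficients were positive. Tdo2 with Kynu gave a Pearson r of 0.757 and a Spearman rho of 0.905 (exact permutation p 0.00273 and 0.00456, adjusted 0.0625 and 0.103), with r of 0.680 without the 2 mice farthest from the median of Tdo2 and 0.765 within groups. Kynu with Acmsd gave r of 0.902 and rho of 0.810 (exact permutation p 0.00278 and 0.0218, adjusted 0.0625 and 0.314), and r was 0.569 without the 2 farthest mice. The steepest opposite pair was Tdo2 with Qprt, at r of -0.820 and rho of -0.786 (exact permutation p 0.0154 and 0.0279, adjusted 0.231 and 0.314), with r of -0.756 without the 2 farthest mice and -0.914 within groups. Ido2 with Haao had r of 0.723 and rho of 0.905 (exact permutation p 0.0382 and 0.00456, adjusted 0.263 and 0.103), with r of 0.588 without the 2 farthest mice and 0.429 without AdNAMPT mouse 1. Values of all genes in a library share its depth and its scaling factor.

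**Figure D4:**
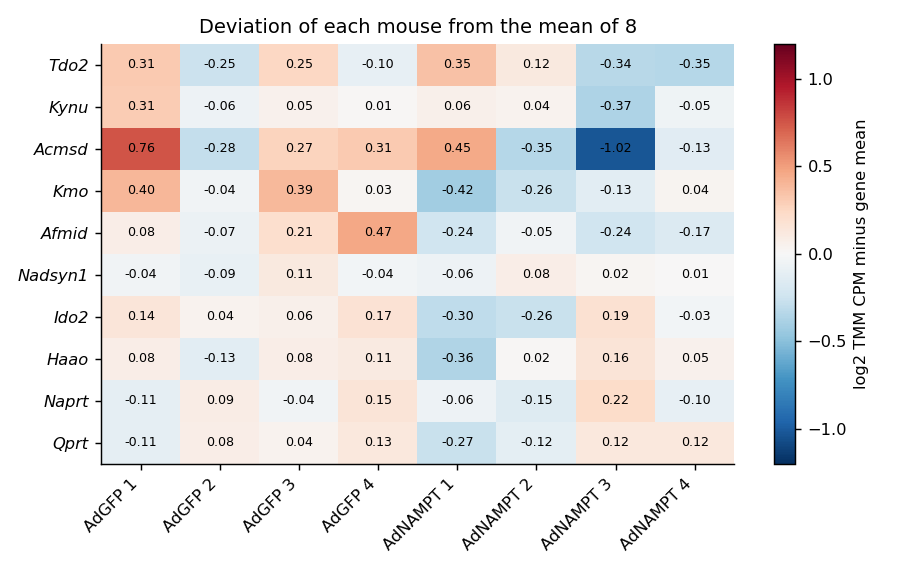
Deviation of each mouse from the mean of 8 mice, in log2 TMM CPM, with genes in rows ordered by group of deviations and red above and blue below the mean. Tdo2, Kynu and Acmsd share positive values in AdGFP mouse 1 and negative values in AdNAMPT mouse 3, where Acmsd reaches -1.02, while the Nadsyn1 row stays between -0.09 and 0.11.

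The printed promoters differ in CG content, and over the 6 windows used the CG count ran opposite to the spread except that Afmid had more CG than Qprt at a wider spread. This description was made after the spreads had been seen and carries no test. The letters CG, which read the same on both strands, occur 3 times in the Tdo2 window, 5 in Kmo, 6 in Haao, 6 in Qprt, 15 in Afmid and 23 in Nadsyn1. Ido2, Kynu and Naprt had no sequence in the table used, and Acmsd, the gene with the widest spread, was not used here, so the description leaves out that end of the range. Among 32851 RefSeq promoter windows of the same length the median was 6 and the quartiles 2 and 16. A window with 3 or fewer CG was found in 37.8% of cases and a window with 23 or more in 13.3%. Across 7524 tested genes with a single window, the median within-group SD was 0.248 for 0 to 5 CG (1084 genes), 0.163 for 6 to 15 CG (2500 genes) and 0.156 for 16 or more (3940 genes). The quartiles of the 3 classes overlapped, at 0.161 to 0.369, 0.118 to 0.237 and 0.111 to 0.220. Nadsyn1, at 0.0739, lay below the lower quartile of its own class. Median levels also differed between these classes, at 3.41, 3.88 and 4.10 log2 CPM, and the part of expression level in the spread was not tested.

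**Figure D5:**
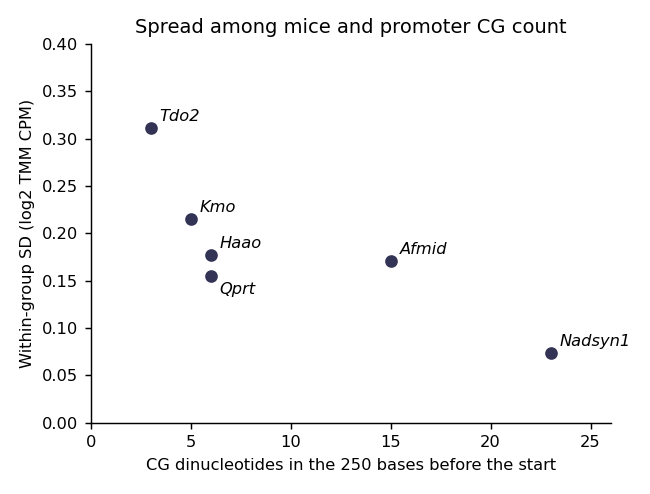
Within-group SD of log2 TMM CPM (vertical axis) against the number of CG dinucleotides in the 250 bases before the start (horizontal axis) for 6 genes with a RefSeq window, 1 point per gene. Tdo2, with 3 CG, has an SD of 0.311 and Nadsyn1, with 23 CG, an SD of 0.0739, with the other genes between them.

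Genes around the pathway were counted from lists assembled by function. Among all tested genes, 49.6% were lower with TMM scaling and 26.3% with library size alone. An unadjusted p under 0.05 by limma was found for 9.69% of them. These shares are the background for every list below. Of 12 tested genes in the side branches of tryptophan and kynurenine breakdown, 0 were higher and 12 lower with TMM scaling. With library size alone 4 were higher and 8 lower, at a median of -0.09, where all tested genes had a median of 0.09. With TMM scaling the median log2 fold change of the 12 was -0.18, with 4 at an unadjusted p under 0.05 and 0 passing after adjustment. The kynurenine aminotransferases Kyat1 and Kyat3 had log2 fold changes of -0.34 (SE 0.12) and -0.46 (SE 0.20), and Aadat and Got2, which share that activity, -0.21 and -0.09. Kyat3 was at 172.9, 162.9, 163.7 and 188.7 CPM in AdGFP and at 64.4, 125.1, 160.7 and 179.6 CPM in AdNAMPT, where mouse 1 was lowest. Maob, an amine oxidase, was at -0.29 (SE 0.10) on the same scale, and Aldh8a1, which acts on the product of Acmsd, -0.12 (SE 0.09). Of 10 tested genes of tryptophan supply, 4 were higher and 6 lower (7 and 3 with library size alone), 1 with an unadjusted p under 0.05. That gene was Slc3a2, the shared heavy chain of amino acid transporters, at -0.34 (SE 0.09), while Slc7a8 and Slc7a1 had values of -0.08 (SE 0.26) and 0.71 (SE 0.35). Cofactor genes numbered 7, with 2 higher and 5 lower (5 and 2 with library size alone) and 0 at an unadjusted p under 0.05, among them Pdxk (-0.18), which makes the vitamin B6 cofactor that Kynu uses, and Flad1 (0.08), which makes the FAD that Kmo carries.

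In salvage and the steps shared with it, 5 of 10 tested genes were higher and 5 lower, 2 with an unadjusted p under 0.05. Nmnat1, the nuclear adenylyltransferase that also serves the de novo and Preiss-Handler routes, was at 17.3, 20.2, 19.3 and 18.9 CPM in AdGFP and at 21.7, 24.2, 24.4 and 21.6 CPM in AdNAMPT. The groups did not overlap in CPM, as for 8.22% of all tested genes, but they overlapped after TMM scaling, where AdGFP mouse 2 at 21.5 was above AdNAMPT mice 1 and 4 at 20.6 and 21.2. The log2 fold change was 0.22 (SE 0.08, adjusted p 0.460 by limma). Aox1, an oxidase of methylated nicotinamide, did not overlap on either scale, with TMM values of 84.8 to 104.3 CPM in AdGFP and 104.5 to 117.0 CPM in AdNAMPT (log2 fold change 0.24, SE 0.08, adjusted p 0.383 by limma). Nmnat3 and Nnmt, which methylates nicotinamide, had log2 fold changes of -0.14 (SE 0.16) and -0.29 (SE 0.18).

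Lists of regulators gave 0 adjusted calls by limma and 1 by DESeq2, for the hepatocyte transcription factor Onecut1. The share of all tested genes that DESeq2 called is not given here, so this 1 call has no background beside it. Onecut1 was at 3.35 to 5.38 CPM in AdGFP and at 24.2, 6.42, 8.75 and 10.4 CPM in AdNAMPT mice 1 to 4 (adjusted p 0.385 by limma). AdNAMPT mouse 1, the highest, had the lowest weight in the limma fit, 0.440, and DESeq2 used no such weights. The part of that mouse in the call was not tested. Targets of the aryl hydrocarbon receptor, to which kynurenine can bind, were 4 higher and 4 lower, with Tiparp at 0.43 (SE 0.17) and Cyp1a2 at -0.51 (SE 0.26), and 1 had an unadjusted p under 0.05. Of 12 genes that respond to glucocorticoids, as Tdo2 does, 4 were higher and 8 lower (6 and 6 with library size alone), 3 with an unadjusted p under 0.05, namely Tat (-0.56, SE 0.15), Pck1 (-0.49, SE 0.17) and the receptor gene Nr3c1 (-0.15, SE 0.07). Hepatocyte transcription factors divided into 6 higher and 6 lower (10 and 2 with library size alone), and 3 had an unadjusted p under 0.05, all higher, among them Foxa2 (0.47, SE 0.13).

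Markers of other liver cells were measured beside these results. Of 7 Kupffer cell markers, 0 were higher and 7 lower under either scaling, with a median log2 fold change of -0.44 with TMM. An unadjusted p under 0.05 by limma was found for 3 of them, against 5.04% of all tested genes in the lower direction, and 0 passed after adjustment. The summed level of the 7 markers was 237.7 to 296.4 CPM in AdGFP and 175.5 to 287.0 CPM in AdNAMPT, and their part in the lower estimates of Kmo, Afmid and Acmsd was not tested. Sums for sinusoidal endothelial, stellate cell and cholangiocyte markers overlapped between groups, at 200.6 to 240.0 against 217.0 to 249.6 CPM, 280.1 to 323.8 against 312.1 to 332.4 CPM and 26.5 to 42.2 against 29.3 to 44.3 CPM. In these 3 lists 2, 2 and 3 of 5 genes were higher with TMM scaling, and 4 of 5 in each with library size alone. An unadjusted p under 0.05 by limma was found for 0, 1 and 1 of them, in the higher direction, and 0 passed after adjustment. Neutrophil and monocyte markers summed to 5.30 to 7.53 against 5.41 to 9.43 CPM. The 3 that were tested were all higher under either scaling, at a median log2 fold change of 0.46 with TMM. Of these, 0 had an unadjusted p under 0.05 by limma. T and B cell markers, of which 0 of 6 passed the filter, summed to 1.02 to 1.44 against 1.42 to 3.71 CPM. Markers of the kidney tubule, the other tissue in which Acmsd is well known, summed to 0.615 to 1.31 CPM in AdGFP and 1.06 to 1.83 CPM in AdNAMPT.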

How the data were processed

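Liver RNA from 8 db/db mice was sequenced, 4 per group by the sample titles. Per the submitters' processing notes, the authors aligned reads with STAR 2.4.0b to GRCm38 and counted unique, unambiguous reads per gene with featureCounts 1.4.5. The strand setting is not given in the sources used here. Removal of ribosomal RNA is given as Ribo-Zero in the labels and as poly-A selection in the study's methods. Deposited counts are whole numbers of reads for each gene. The deposited CPM are those counts scaled by the library total, and the deposited RPKM are CPM divided by exonic length.

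Symbols came from GENCODE M21 (40254 of 41388 features). After 355 ribosomal RNA features were removed, genes above 1 CPM in at least 3 libraries (2 in fits without 1 library) were scaled by TMM and fitted with limma voomWithQualityWeights, with group as the only term and Benjamini-Hochberg adjustment over 12270 genes. A total of 34 genes passed an adjusted p of 0.05. Fitting was tested on simulated data. Fits used limma 3.58.1, DESeq2 1.42.0 and edgeR 4.0.16 in R 4.3.3, and other steps scipy 1.17.1, numpy 2.4.6, matplotlib 3.10.9 and pandas 2.3.3 in Python 3.11.15.

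The genes, lists and tests were chosen with earlier results of these data known. All 10 pathway genes were named, with Nampt, Nmnat1, Nmnat3, Nnmt, Aldh8a1, Aadat, Kyat1, Kyat3, Got2, Ido1, Slc7a8 and Nr3c1 whatever their values, and the 2 lowest p-values of each related list. Other genes were named after their values were seen. Some items that these rules select are not reported here. Alternatives were edgeR's quasi-likelihood test, the DESeq2 Wald test, no sample weights, DESeq2 size factors, library size only, no filter, a mean count of at least 10, the replicate number as a block, and each library left out in turn. Libraries held 12006713 to 19879814 counts, so 3 counts correspond to 0.151 to 0.250 CPM, a floor that covers counting error only. P-values measure the spread between these mice.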

Additional observations from a re-analysis of the deposited data

Results flagged for a closer look

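Dixon's criterion at its 95% value picked out 5 of the 106 groups of 4 libraries examined, where chance gives about 5.3. Afmid was at 37.9 CPM in AdNAMPT mouse 2, above the 34.1 to 34.8 CPM of the other AdNAMPT mice. Haao was at 560 CPM in AdGFP mouse 2, below the 667 to 687 CPM of the other AdGFP mice. The ratio of Qprt to Naprt was 1.85 in AdGFP mouse 3, above the 1.72 to 1.73 of the others in its group. Outside the 10 genes, Slc3a2 was at 27.7 CPM in AdNAMPT mouse 1 against 21.5 to 22.5 CPM in the other AdNAMPT mice, and the neutrophil marker S100a9 was at 1.25 CPM in that mouse against 3.65 to 4.07 CPM.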

How the results depend on the processing

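None of the 10 genes passed the adjusted threshold in any of the 16 alternatives, in which the smallest adjusted p was 0.189, for Ido2. Of 160 alternative fold changes of the 10 genes, 151 kept direction and side of the threshold. Of 80 ratio differences, 76 kept direction. For the ratios the side of the threshold could hardly change, because 1 ratio alone could not pass after adjustment. With library size as the only scaling, Haao was at 0.051, Qprt at 0.044 and Naprt at 0.042, opposite in sign to the TMM values and below the median of 0.09 that this scaling gave all genes. Leaving out 1 library gave a log2 fold change of -0.33 to 0.0031 for Tdo2, -0.078 to 0.026 for Haao, -0.12 to 0.037 for Qprt and -0.15 to 0.055 for Naprt, and log2 ratio differences of -0.10 to 0.043 for Qprt over Naprt and -0.37 to 0.0042 for Tdo2 over Nampt. Among the related genes, the DESeq2 Wald test called 1 where limma called 0, the hepatocyte transcription factor Onecut1, named after its values were seen. Correlated pairs past the adjusted threshold ranged from 0 to 1 when 1 library was left out, with 1 pair without AdGFP mouse 2 and 1 without AdNAMPT mouse 2. The cause of these changes was not tested. The mouse numbers come from the sample titles and were not treated as pairs. Deviations of mice of the same number correlated at 0.225, -0.0451, 0.213 and 0.00516 for numbers 1 to 4. Mice of different numbers were not compared, so these values cannot show whether the numbers mark pairs. With a replicate block, 0 of the 10 genes passed, 3 had an unadjusted p under 0.05, and Acmsd, Kmo and Afmid were at -0.61, -0.35 and -0.38. The blocked fit changed no call of the genes or lists. For the ratios the smallest p that 4 pairs allow in the exact test is 0.125, so the blocked test could not have called any. With 4 mice per group, the confidence intervals of Tdo2 and Acmsd reached from -0.52 to 0.21 and from -1.24 to -0.17, so changes within them could not be told apart.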
